A study of Mus musculus with 24 samples.

Results

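The genes described here are 7 genes of arginine, nitric oxide and itaconate metabolism, Nos2, Arg1, Arg2, Ass1, Slc7a2, Gch1 and Acod1. They were picked by gene symbol from a table of 54532 mouse genes, and all 7 were found. Expression was measured in 24 polyA RNA libraries, 12 of macrophages cultured from bone marrow in L929-conditioned medium (BMDMs) and 12 of dendritic cells cultured from bone marrow under GM-CSF plus IL-4 (BMDCs). The label WT stands for Tmem173 fl/fl mice and CRE for Tmem173 fl/fl mice that also carried Lzym-Creert2, a tamoxifen-inducible Cre driven by the lysozyme gene Lyz2, and mice of both labels had received tamoxifen. Cultures were either unstimulated (control) or given DMXAA, an agonist of mouse STING, the protein encoded by Tmem173. This made 8 groups of 3 libraries, numbered 1 to 3: WT control, WT DMXAA, CRE control and CRE DMXAA in each cell type. The dose is labelled 40 µM, whereas the study's methods state DMXAA in µg/mL, so the concentration is uncertain. The age of the mice and the length of stimulation are not given for these libraries in the sources used here. Nothing states whether a number marks a mouse, so p-values measure only the spread between these libraries.

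Arginine enters activated macrophages mainly through the cationic amino acid transporter CAT2, encoded by Slc7a2. Inducible nitric oxide synthase (Nos2) turns it into nitric oxide and citrulline, with tetrahydrobiopterin as cofactor, and GTP cyclohydrolase 1 (Gch1) starts the synthesis of that cofactor. Argininosuccinate synthase (Ass1) begins the return of citrulline to arginine. The arginases, cytosolic Arg1 and mitochondrial Arg2, compete for the same arginine and make ornithine and urea. Acod1 (Irg1) makes itaconate from the citrate cycle intermediate cis-aconitate, and itaconate inhibits succinate dehydrogenase. High Nos2 is a classic mark of inflammatory macrophages and high Arg1 of cells grown with IL-4.

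Total counts were 16470157 to 18912887 per BMDM library and 15657347 to 18080027 per BMDC library. The 4 BMDM libraries numbered 3, one in each group, stood apart. The median gene of a 9-gene macrophage marker list had 0.582 to 1.39 CPM (counts scaled to library size) there against 333 to 819 in the other 8, and a 9-gene fibroblast list had 367 to 565 CPM against 1.28 to 28.6. The leukocyte marker Ptprc had at most 0.317 CPM in them, and 1 to 3 of the 9 macrophage markers were at 0. These 4 libraries therefore go against their label and are given apart, and the BMDM comparisons rest on the 8 libraries numbered 1 and 2. In BMDCs the median gene of a 9-gene dendritic cell list had 27.3 to 73.3 CPM, with none at 0, and that of the macrophage list 64.6 to 209 CPM. Itgax and H2-Aa had at least 997 and 211 CPM there, Flt3 0.339 to 9.51 and Cd209a 0.830 to 10.9, while the macrophage markers Adgre1 and Csf1r had 125 to 374 and 85.9 to 308. Lyz2, whose promoter drives the Cre, had 1177 to 8108 CPM in BMDCs, and the lowest values were those of CRE library 2. Tmem173 itself had 8.76 to 31.8 FPKM (fragments scaled to gene length and library size) in the 8 BMDM libraries and 19.7 to 55.3 in BMDCs. In BMDMs under DMXAA it had 31.8 and 22.8 FPKM in WT and 9.12 and 10.1 in CRE. In BMDM controls and in BMDCs the labels overlapped. It was never near 0 in either label, so its level alone does not check the genotype labels. Some libraries were closer to each other than others. WT 2 and CRE 3, and likewise WT 3 and CRE 1, of the same treatment in BMDCs had a chi-square per gene of 3.48 to 5.14 between their counts, against 15.9 to 181 for other BMDC pairs, where 1 is sampling noise. Whether a label or number was exchanged there was not tested, so a difference between WT and CRE in BMDCs holds only for the labels as given. CRE libraries 1 and 2 of BMDMs were at 3.40 to 5.32, against 40.3 to 264 for other pairs of the 8. These pairs differed by more than sampling noise and were kept as separate libraries.

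The upstream sequences of 3 of the 7 genes were available from RefSeq (GRCm38.p6): Acod1, Gch1 and Ass1. All 3 genes rose with DMXAA in WT libraries of both cell types, and the Ass1 sequence is not printed. Those of Acod1 and Gch1 are shown. They run 5′ to 3′ on the gene's strand and end before both the RefSeq start and the start in the deposited table. The Acod1 stretch is chr14:103046762-103046976 on the plus strand and the Gch1 stretch chr14:47189414-47189663 on the minus strand. Capitals mark matches to the motifs searched on both strands.
Acod1: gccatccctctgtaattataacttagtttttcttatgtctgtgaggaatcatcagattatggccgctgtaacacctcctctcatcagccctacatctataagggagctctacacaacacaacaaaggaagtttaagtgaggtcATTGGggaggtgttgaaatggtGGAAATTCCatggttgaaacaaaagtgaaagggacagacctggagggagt
Gch1: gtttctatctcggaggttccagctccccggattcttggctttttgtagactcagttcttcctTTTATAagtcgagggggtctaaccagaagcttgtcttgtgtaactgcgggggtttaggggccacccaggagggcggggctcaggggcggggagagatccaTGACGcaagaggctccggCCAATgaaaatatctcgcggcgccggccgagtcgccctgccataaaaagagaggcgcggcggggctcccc
The motifs, searched over the 250 bases before each RefSeq start, were the TATA box TATAAA, the CCAAT box, the core of the interferon-stimulated response element, the STAT-binding GAS form TTCNNNGAA, the NF-kB form GGAANTTCC and another NF-kB form, the short cAMP response site TGACG and the C/EBP form TTGCNNAA. Acod1 held the NF-kB form GGAAATTCC 85 bases before its start, a form present in 0.813% of the 32851 promoters in the table. It also held CCAAT on the reverse strand 107 bases before the start (33.8% of promoters) and TATAAA 28 bases before it (12.4%), which lies inside the gene as the table places it and is not printed. Gch1 held CCAAT at 70 bases, TGACG at 88 bases (17.8%) and TATAAA on the reverse strand at 188 bases. Ass1 held none of the 8 motifs in this window. A match describes letters and not a bound site.

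**Figure D1:**
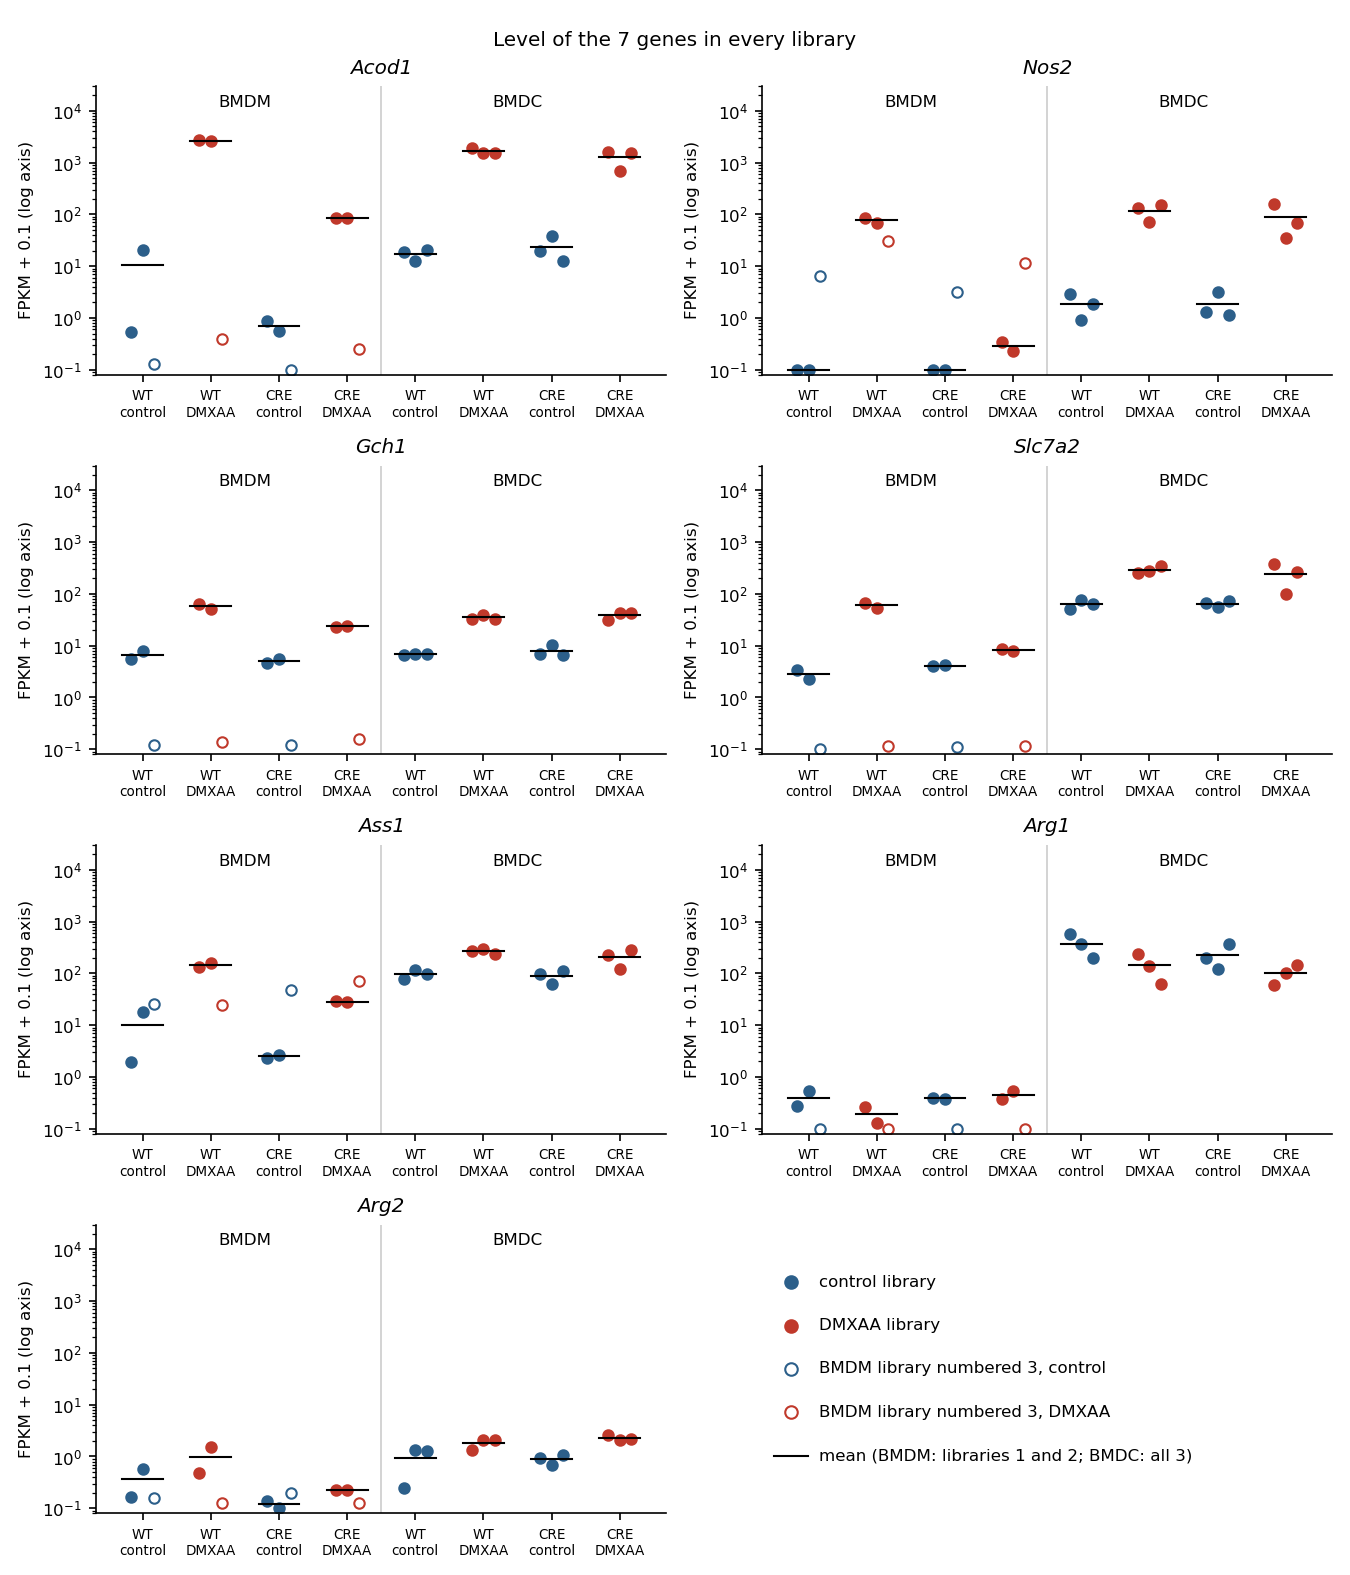
FPKM + 0.1 (log axis) of each gene in every library, by cell type, label and treatment. Points are libraries (blue, control; red, DMXAA), open points the BMDM libraries numbered 3, and lines the mean of libraries 1 and 2 in BMDMs and of all 3 in BMDCs. Arg1 sits at 60.4 FPKM or above in every BMDC library and at or below 0.445 in every BMDM library, while Nos2 is at 0 in the 4 BMDM control libraries numbered 1 and 2.

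Nos2 (ENSMUSG00000020826, chromosome 11, 78920787 to 78960254, plus strand, GRCm38) was induced by DMXAA in WT BMDMs and in BMDCs of both labels. In BMDMs it had 0 counts in both WT and both CRE control libraries. Under DMXAA it reached 84.4 and 67.6 FPKM in the WT libraries and only 0.245 and 0.126 in the CRE libraries. The WT and CRE libraries thus did not overlap, and the CRE mean was 0.245% of the WT mean. In BMDCs the control values were 2.85, 0.808 and 1.74 FPKM for WT and 1.22, 3.01 and 1.03 for CRE. Under DMXAA they were 134, 70.2 and 150 FPKM for WT and 159, 34.4 and 69.3 for CRE. Every DMXAA library was above every control library, and WT and CRE overlapped in both treatments. Fewer cells that express a gene and less RNA per cell cannot be told apart in such bulk libraries.

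The tests were made in edgeR over all genes that passed a filter (3 or more libraries of the fit with an FPKM of 1 or above), with a call at a Benjamini-Hochberg adjusted p under 0.05. All 7 genes passed in BMDCs. Acod1, Slc7a2, Ass1 and Gch1 passed in BMDMs, Acod1 only through its DMXAA libraries and 1 control library. Nos2 had to be tested with a filter on 2 libraries, which it passed only through WT DMXAA, and Arg1 and Arg2 were too low in BMDMs to test. Of the 11569 genes in that fit, 18.4% were called higher in the WT response, 7.28% higher in the CRE response and 9.99% lower in CRE under DMXAA, and Nos2, chosen for it after its values were seen, is left out of the counts of genes called. In WT BMDCs Nos2 rose by 6.02 ± 0.74 (SE, n = 3) on the log2 scale (adjusted p 0.000127) and in CRE BMDCs by 5.62 ± 0.73 (adjusted p 0.000231). In WT BMDMs the rise was at least 11.08 on the log2 scale, at least 2160-fold, when control is put at a floor of 3 counts per library (adjusted p 0.000104). In CRE BMDMs it was at least 2.34, or 5.06-fold (adjusted p 0.0205). That call rests on 18 and 9 reads and was lost when CRE control 1, CRE control 2 or CRE DMXAA 1 was left out (adjusted p 0.0937, 0.104 and 0.0815), and in limma on log2(FPKM + 1) or log2(FPKM + 0.1) (adjusted p 0.341 and 0.0643). Under DMXAA, the log2 difference of CRE BMDMs from WT was -8.61 ± 0.35 (SE, n = 2; adjusted p 0.00111). With the close CRE libraries counted as 1 sample, both CRE calls were lost (adjusted p 0.106 for the response and 0.142 for the difference from WT).

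Gch1 (ENSMUSG00000037580, chromosome 14, 47153895 to 47189413, minus strand), the cofactor enzyme, rose in all 4 DMXAA groups. WT BMDMs had 5.35 and 7.83 FPKM in control and 64.6 and 51.4 under DMXAA. CRE BMDMs had 4.58 and 5.31 in control and 23.3 and 24.0 under DMXAA. DMXAA libraries lay above controls in both labels, and the CRE DMXAA pair lay below the WT pair. The fitted rise was 3.03 ± 0.23 (SE, n = 2; adjusted p 0.000132) in WT and 2.23 ± 0.22 (adjusted p 0.00124) in CRE on the log2 scale. CRE was lower than WT under DMXAA, with a log2 difference of -1.26 ± 0.21 (adjusted p 0.00892), a call lost without CRE DMXAA 1 or 2 (adjusted p 0.0881 and 0.0817). In BMDCs control values ran from 6.56 to 10.1 FPKM and DMXAA values from 31.3 to 42.7 over both labels, with no overlap between treatments. The rises were 2.38 ± 0.20 in WT (SE, n = 3; adjusted p 8.40e-06) and 2.30 ± 0.20 in CRE (adjusted p 1.07e-05). Gch1 overlaps the pseudogenes Gm49134 and Gm18811. Of 7 other genes of tetrahydrobiopterin synthesis and recycling, 5 were tested, and in BMDCs none was called in either label (32.2% and 25.4% of all genes were called in either direction), with median log2 changes of -0.10 and 0.09 against 0.01 and -0.01 over all genes. In WT BMDMs 1 was called (40.4% of all genes were), sepiapterin reductase Spr, which fell by 1.08 ± 0.26 (adjusted p 0.0164).

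Slc7a2 (ENSMUSG00000031596, chromosome 8, 40862396 to 40922308, plus strand) encodes the arginine transporter. Of the 4 genes tested for it in BMDMs, only Slc7a2 had a response called different between labels. Under DMXAA the CRE mean was a smaller share of the WT mean for Nos2 (0.245%) and Acod1 (3.24%) than for Slc7a2. WT libraries went from 3.31 and 2.13 FPKM in control to 67.6 and 53.5 under DMXAA. CRE libraries went from 4.0 and 4.07 to 8.70 and 7.76. DMXAA and control did not overlap in either label. The rise was 4.38 ± 0.24 on the log2 scale in WT (SE, n = 2; adjusted p 3.08e-05) and 1.01 ± 0.21 in CRE (adjusted p 0.0275), and the test of the difference between these responses gave -3.37 ± 0.30 (adjusted p 0.00822). Under DMXAA the CRE mean was 13.6% of the WT mean (log2 difference -2.85 ± 0.22, adjusted p 0.000937). Both the CRE response and the difference between responses were lost whenever any of the 4 CRE libraries was left out, with adjusted p of 0.126 to 0.200 and 0.0708 to 0.102. In BMDCs Slc7a2 was already at 52.0 to 74.6 FPKM in control and reached 251, 275 and 338 in WT and 376, 99.7 and 263 in CRE. WT rose by 2.17 ± 0.39 (SE, n = 3; adjusted p 0.00147) and CRE by 1.93 ± 0.39 (adjusted p 0.00371). Slc7a2 overlaps Gm26584 on the opposite strand, and the library kit named in the labels does not mark strand, so their reads cannot be told apart.

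Ass1 (ENSMUSG00000076441, chromosome 2, 31470207 to 31520672, plus strand), which recycles citrulline, rose in both cell types. In WT BMDMs control libraries 1 and 2 had 1.83 and 17.9 FPKM and DMXAA libraries 134 and 157. In CRE BMDMs control had 2.25 and 2.59 and DMXAA 29.2 and 27.7. DMXAA and control did not overlap within a label. The rise was 3.77 ± 0.89 on the log2 scale in WT (SE, n = 2; adjusted p 0.0145), or 6.25 without WT control 2 and 2.91 without WT control 1, while the CRE change of 3.53 ± 0.91 (adjusted p 0.0524) and the difference of -2.33 ± 0.83 between labels under DMXAA (adjusted p 0.0978) were not called. Without WT control 2, which differed from WT control 1 in Ass1, both were called (adjusted p 6.52e-05 and 0.000308); without WT control 1 they were called as well (adjusted p 7.21e-05 and 0.000341). In BMDCs control ran from 61.0 to 115 FPKM and DMXAA from 123 to 293 over both labels, with no overlap. The rises were 1.43 ± 0.31 in WT (SE, n = 3; adjusted p 0.00428) and 1.21 ± 0.31 in CRE (adjusted p 0.0134; 0.0616 without CRE DMXAA 3). The Ass1 values are uncertain because the processed pseudogene Gm5424 on chromosome 10 took counts of its own, equal to 24.2% to 89.7% of the Ass1 counts per library, and the highest shares were in the BMDM controls with the lowest Ass1.

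Arg1 (ENSMUSG00000019987, chromosome 10, 24915221 to 24927484, minus strand) separated the cell types, and with them the culture media. The 8 BMDM libraries had 0.0311 to 0.445 FPKM, from 1 to 20 reads, under either treatment. BMDC controls had 566, 363 and 200 FPKM in WT and 198, 120 and 372 in CRE. Under DMXAA the values were 239, 137 and 61.1 in WT and 60.4, 100 and 142 in CRE. Control and DMXAA overlapped within each label. The unpaired test gave -1.40 ± 0.55 (SE, n = 3) on the log2 scale in WT (adjusted p 0.0759) and -1.21 ± 0.55 in CRE (adjusted p 0.135), neither called. Within same-numbered libraries, however, Arg1 was lower under DMXAA in each of 6 pairs, with control 2.37, 2.65 and 3.27 times DMXAA in WT and 3.27, 1.2 and 2.62 times in CRE. Of these pairs, 4 are from the close libraries WT 2 and CRE 3, and WT 3 and CRE 1, so the 6 are not independent of each other. Same-numbered control and DMXAA libraries of a label deviated together in BMDCs, and with the number as a block within label the fall was called, at -1.48 in WT (adjusted p 0.000592) and -1.15 in CRE (adjusted p 0.00338).

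Arg2 (ENSMUSG00000021125, chromosome 12, 79130777 to 79156301, plus strand), the mitochondrial arginase, was low throughout. BMDC controls had 0.151, 1.21 and 1.18 FPKM in WT and 0.822, 0.594 and 0.974 in CRE. Under DMXAA they had 1.22, 1.98 and 1.95 in WT and 2.51, 1.98 and 2.12 in CRE. These are 4 to 50 reads per library, and treatments did not overlap in either label, though WT control 2 (1.21) and WT DMXAA 1 (1.22) nearly met. The change was 0.99 ± 0.57 (SE, n = 3) on the log2 scale in WT (adjusted p 0.219) and 1.44 ± 0.57 in CRE (adjusted p 0.0871), and with the block within label it was called in both, at 1.16 (adjusted p 0.0401) and 1.45 (adjusted p 0.0147). In BMDMs Arg2 had 1.41 FPKM in WT DMXAA 2 and at most 0.465 in the other 7. It overlaps Gm48780 and the end of Vti1b on the opposite strand, so its few reads cannot be assigned with certainty.

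**Figure D2:**
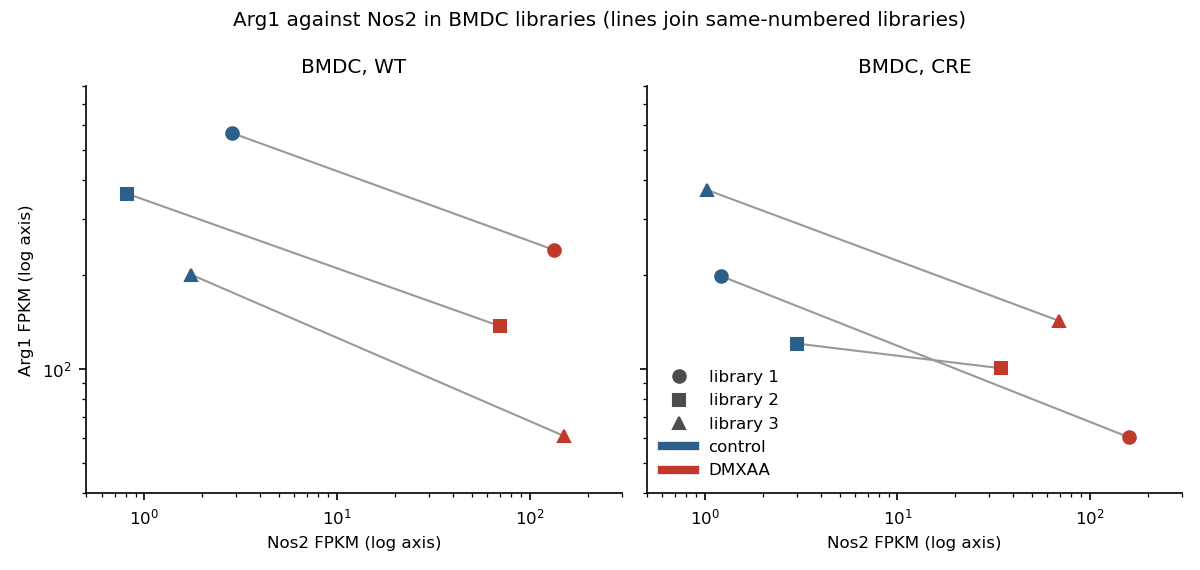
Arg1 against Nos2 FPKM (both log axes) in the BMDC libraries of each label, blue for control and red for DMXAA, with lines joining libraries of the same number. All 6 lines run down and to the right, and the shallowest is CRE library 2, where Arg1 went from 120 to 100.

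Arg1 FPKM was thus 39.9 to 449 times Nos2 FPKM in the 6 BMDC controls. Under DMXAA it was 0.379 to 2.91 times Nos2, with Nos2 above Arg1 in WT library 3 and CRE library 1 and Arg1 above Nos2 in the other 4. In WT BMDMs under DMXAA Nos2 was 532 times Arg1 in library 1, on 4 Arg1 reads, and library 2 held 1 Arg1 read. CRE BMDMs under DMXAA had both genes at or below 0.445 FPKM.

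Acod1 (ENSMUSG00000022126, chromosome 14, 103046977 to 103056573, plus strand), the itaconate-forming enzyme, had the highest level of the 7 genes under DMXAA in every group of BMDCs and BMDMs. WT BMDMs had 0.429 and 20.6 FPKM in control and 2691 and 2616 under DMXAA. CRE BMDMs had 0.767 and 0.461 in control and 85.4 and 86.3 under DMXAA. Every DMXAA library lay above every control library, and the CRE mean under DMXAA was 3.24% of the WT mean. The rise was 7.85 ± 1.54 (SE, n = 2; adjusted p 0.00702) in WT and 7.11 ± 1.57 (adjusted p 0.0333) in CRE on the log2 scale. The WT rise was 12.52 without WT control 2 and 6.89 without WT control 1. The log2 difference of CRE from WT under DMXAA was -4.92 ± 1.34 (adjusted p 0.0434). The CRE response was lost without any 1 of the 4 CRE libraries (adjusted p 0.129 to 0.242), and the difference from WT without any 1 library except the WT controls (0.0729 to 0.238). In control WT 2, the library with 20.6 FPKM of Acod1 and 17.9 of Ass1, the fibroblast list stood at 28.6 CPM against 2.97 in WT 1, and the part of this in Acod1 and Ass1 was not tested. The number 3 libraries, with a fibroblast list of 367 to 565 CPM, had at most 0.298 FPKM of Acod1 and 24.7 to 70.5 of Ass1. In BMDCs control values were 19.0, 12.3 and 20.6 FPKM in WT and 19.8, 38.0 and 12.5 in CRE. Under DMXAA they were 1902, 1529 and 1518 in WT and 1580, 676 and 1500 in CRE. Treatments did not overlap and labels did, with rises of 6.55 ± 0.51 in WT (SE, n = 3; adjusted p 4.74e-06) and 5.72 ± 0.49 in CRE (adjusted p 1.07e-05).

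**Figure D3:**
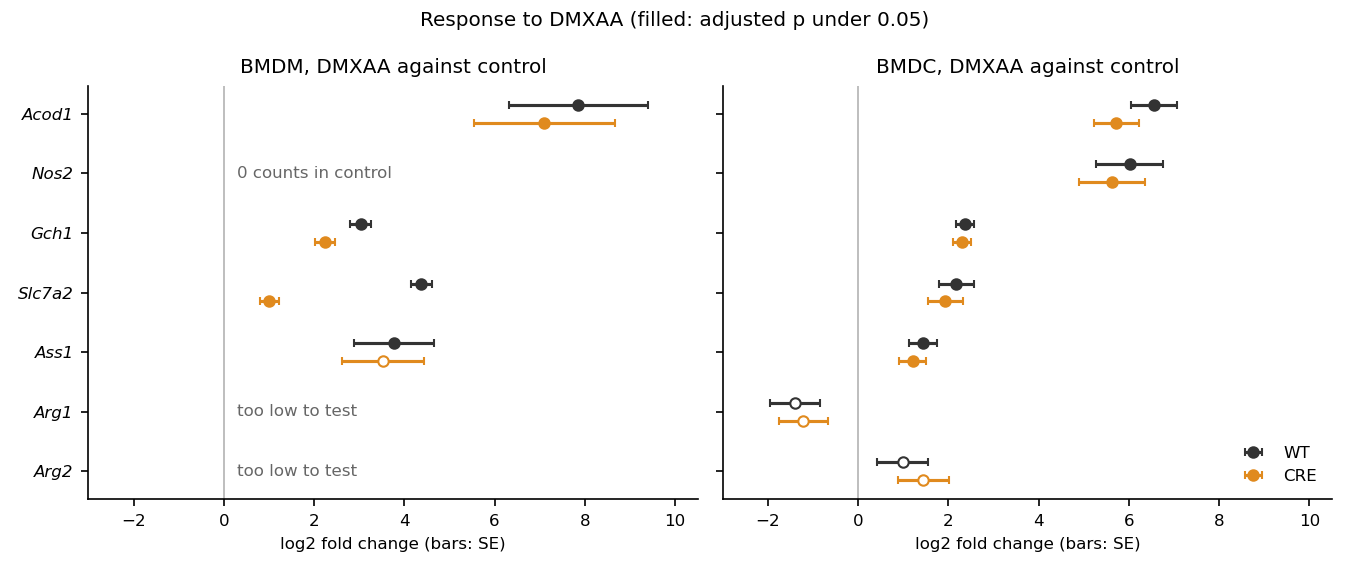
Fitted log2 fold change of DMXAA against control, with SE, for WT (black) and CRE (orange) in each cell type, filled where the adjusted p was under 0.05. In BMDMs Nos2 has no point because its controls had 0 counts, and Arg1 and Arg2 were too low to test. In BMDCs WT and CRE points lie close together for all 7 genes, while Slc7a2 in BMDMs lies at 4.38 for WT and 1.01 for CRE.

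Counted together, DMXAA raised 5 of 7 genes in WT BMDCs, where 17.0% of all 12126 genes tested were called higher and 32.2% in either direction, and the same number in CRE BMDCs, where 14.0% were called higher and 25.4% in either direction. With the number as a block within label, 6 were called higher and 1 lower in both labels, where 24.6% and 21.7% of all genes were called higher (48.7% and 42.7% in either direction). The median log2 change of the 7 was 2.17 and 1.93, against 0.01 and -0.01 over all genes tested. In BMDMs all 4 tested genes were called higher in WT (18.7% of 10938 genes were, and 40.4% were called in either direction) and 3 in CRE (7.93% and 11.3%). The 7 genes were chosen with earlier results of these data known, so the shares beside them describe the set and do not test it. The response comparisons and the comparisons of labels share libraries, so their values for a gene are not independent of each other.

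The genotype question was whether the CRE label changed the response. In BMDMs under DMXAA, 3 of the 4 tested genes were called lower in CRE (10.3% of all genes were). In control 0 of 4 were called (0.0640% of genes in either direction), with log2 differences from -4.17 ± 1.44 for Acod1 to 0.53 ± 0.21 for Slc7a2. The unadjusted edgeR p was under 0.05 for Acod1, Slc7a2 and Ass1 there (0.0236, 0.0423 and 0.0480), and for 773 of all 10938 genes. For Acod1 and Ass1 the difference rests on WT control 2, at 20.6 and 17.9 FPKM. WT control 1, at 0.429 and 1.83, lay below both CRE controls for both genes. With each library left out in turn, the Acod1 difference in control ran from -5.14 to 0.48. The difference between the responses was called for 1 of 4, Slc7a2 (2.59% of genes were called lower). For Acod1, Ass1 and Gch1 it was -0.75 ± 1.84, -0.24 ± 1.17 and -0.80 ± 0.30 (adjusted p 0.865, 0.941 and 0.189). Without WT control 2, which left 1 library in its group, these 3 were at -5.42, -2.73 and -1.15. Without WT control 1 Acod1 and Ass1 were at 0.21 and 0.61. With the close CRE libraries of a treatment counted as 1 sample, 0 of the 4 were called in the CRE response, under DMXAA or for the difference between responses. Of all 10938 genes 102, 0 and 0 were called in that setting, and the WT response of Ass1 was lost (adjusted p 0.0696). For Nos2 no difference between responses was computed, since both control groups were at 0 counts.

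**Figure D4:**
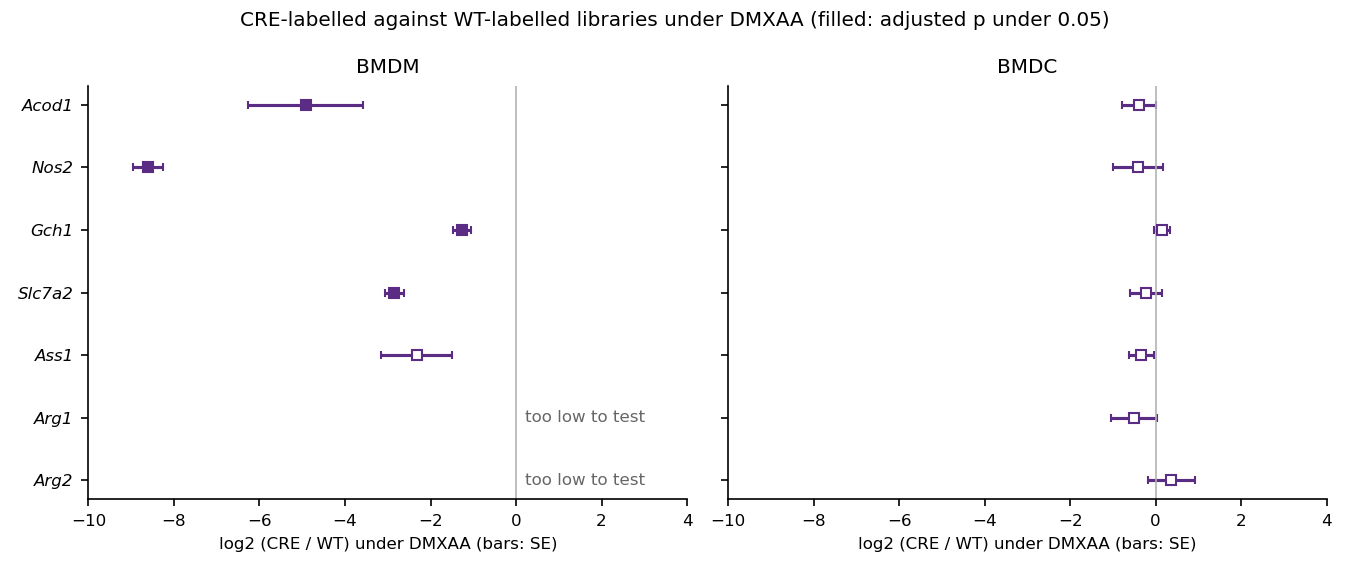
Fitted log2 difference of CRE from WT under DMXAA, with SE, in BMDMs (left) and BMDCs (right), filled where the adjusted p was under 0.05. The BMDM differences run from -1.26 for Gch1 to -8.61 for Nos2, and the 7 BMDC differences lie between -0.51 and 0.36. The BMDM value of Nos2 comes from the fit with the filter on 2 libraries, chosen after its values were seen. Nos2 passed that filter only through WT DMXAA.

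In BMDCs the labels were not distinguishable for any of the 7 genes at this spread. None was called under DMXAA, in control or for the difference between responses in edgeR, and 0% of all 12126 genes were, with 108, 99 and 60 at an unadjusted p under 0.05. DESeq2 called 0, 0 and 1 of all genes in these comparisons, and limma 0 in each. The 7 genes all had an unadjusted p above 0.05 in these comparisons. Under DMXAA the differences ran from -0.51 ± 0.54 (Arg1) to 0.36 ± 0.55 (Arg2) on the log2 scale, in control from -0.69 ± 0.55 (Arg1) to 0.45 ± 0.41 (Acod1), and between responses from -0.83 ± 0.57 (Acod1) to 0.45 ± 0.79 (Arg2). The 2 close pairs of WT and CRE libraries were singled out for their likeness over all genes. Ratios near 1 in them follow from that choice and do not test the CRE label. The same libraries also enter the comparisons of labels above. In these pairs, each in both treatments, CRE was 0.988 to 1.04 times WT for Arg1, 0.958 to 1.04 times for Acod1 and 0.954 to 0.987 times for Ass1. It was 0.942 to 1.08 times for Gch1, 0.955 to 1.11 times for Slc7a2, 0.6999 to 1.28 times for Nos2 and 0.699 to 1.29 times for Arg2. CRE library 2, outside these pairs, had the lowest DMXAA value of the 6 for Acod1, Nos2, Slc7a2 and Ass1. Its Lyz2 was at 1296 CPM in control and 1177 under DMXAA, against at least 4928 in the other BMDC libraries. Its Flt3, at 9.51 and 4.54 CPM, was the highest of the 12. Its H2-Aa (276 and 211 CPM) and Cd209a (2.53 and 0.830) were instead the lowest of their treatment. So was the median of the dendritic cell list, at 27.3 and 31.8 CPM. A 7-gene neutrophil list summed to 355 and 149 CPM there, against at most 74.2 in the other BMDC libraries. The part of these markers in its values was not tested.

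BMDCs were grown under GM-CSF plus IL-4 and BMDMs in L929-conditioned medium, so cell type and medium cannot be told apart. Between the cell types, WT BMDC controls were higher than WT BMDM controls in 4 of 7 genes (14.6% of 12730 genes were called higher). Arg1 was higher by 10.25 ± 0.93 on the log2 scale (adjusted p 1.12e-06), Slc7a2 by 4.53 ± 0.46 (adjusted p 3.20e-06) and Ass1 by 3.28 ± 0.66 (adjusted p 0.00142). Nos2 was at least 54.5-fold higher against the floor of 3 counts (adjusted p 0.000457). Gch1 was not called, with a difference of 0.01 ± 0.21 (adjusted p 0.992), and Arg2 (1.63 ± 0.82, adjusted p 0.155) and Acod1 (0.69 ± 0.84, adjusted p 0.591) were not called. Acod1 was called without BMDM WT control 2 (5.31, adjusted p 0.000181) and stood at -0.30 without BMDM WT control 1. Arg2 was called without BMDC WT control 1 or BMDM WT control 2 (adjusted p 0.0427 and 0.04996). Under DMXAA Arg1 (10.66 ± 1.03, adjusted p 2.57e-06) and Slc7a2 (2.29 ± 0.41, adjusted p 0.000541) remained higher in BMDCs (15.2% of genes were called higher), and Gch1 was lower, at -0.69 ± 0.21 (adjusted p 0.0195; 16.1% lower), a call lost without BMDC WT DMXAA 1 or 3 or BMDM WT DMXAA 1 (adjusted p 0.0678, 0.0516 and 0.176). Nos2 did not differ beyond its spread there, at 76.0 ± 11.9 FPKM (SD, n = 2) in WT BMDMs and 118 ± 42.3 (SD, n = 3) in WT BMDCs (log2 difference 0.67 ± 0.63, adjusted p 0.456). The response was called smaller in BMDCs than in BMDMs for 2 of 7 genes (2.20% of genes), Slc7a2 (log2 difference -2.25 ± 0.54, adjusted p 0.0329) and Nos2 (adjusted p 0.0197), whose fitted size depends on the 0 counts in BMDM controls. Without WT BMDM control 1, control 2 or DMXAA 1 both calls were lost (adjusted p 0.0579, 0.121 and 0.148 for Slc7a2 and 0.0904, 0.0729 and 0.0636 for Nos2). The Slc7a2 call was also lost without any 1 of 7 further libraries: BMDC WT control 2 or 3, WT DMXAA 1 or 2, CRE DMXAA 3, or BMDM CRE DMXAA 1 or 2, with an adjusted p of up to 0.0889.

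Ordered by group mean FPKM, Acod1 and Gch1 were highest in WT BMDMs under DMXAA, at 2653 ± 53.0 and 58.0 ± 9.36 (SD, n = 2). The next groups were the DMXAA-treated BMDCs, whose labels overlapped. CRE BMDMs under DMXAA came next for both, above all control groups and without overlap. Nos2, Ass1 and Slc7a2 were highest in DMXAA-treated BMDCs, again with overlapping labels. For Slc7a2 WT BMDMs under DMXAA (60.5 ± 9.97) came after all 4 BMDC groups, overlapping unstimulated WT BMDCs at 63.1 ± 11.3 (SD, n = 3). Arg1 ran from WT BMDC control at 376 ± 184 to CRE BMDC DMXAA at 101 ± 40.9 (SD, n = 3), with each neighbour overlapping the next.

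The 4 BMDM libraries numbered 3 had a pattern of their own, given as values of single libraries. Nos2 was at 6.25 and 3.01 FPKM in WT and CRE control, where the other 4 BMDM controls had 0 counts, and at 30.0 and 11.2 under DMXAA, 4.80 and 3.71 times control. Ass1 was at 25.8 and 47.2 FPKM in control and 24.7 and 70.5 under DMXAA. Arg1 had 0 counts in all 4, Slc7a2 at most 4 and Gch1 at most 9, and Acod1 went from 2 and 0 counts to 19 and 10. With these 4 libraries included, edgeR called 0 of the 5 genes it tested in every BMDM comparison and 0% of 12379 genes, with 1158 at an unadjusted p under 0.05 for the WT response. Same-numbered BMDM libraries over the 3 numbers deviated together (correlations 0.695 to 0.942), but so did numbers 1 and 2 with each other. For CRE control 1 and CRE DMXAA the correlation was 0.911 at the same number and 0.923 at another. All number 3 libraries stand apart, so these correlations do not show pairing by number. With numbers 1 and 2 alone they were 0.0173 to 0.151 between labels, 0.584 within WT and 0.0206 within CRE. With the number as a block, 4 of the 5 genes were called higher in the WT response, Slc7a2, Gch1, Acod1 and Nos2 (adjusted p 0.00262, 0.00557, 0.0361 and 0.0375), and 526 of 12379 genes were called.

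Other genes of arginine, urea and polyamine metabolism moved in both directions. Of 28 on a list, 21 were tested. In WT BMDCs 3 were called higher and 7 lower (17.0% and 15.2% of all genes were), with a median log2 change of -0.41 against 0.01 over all genes. Spermidine synthase Srm fell by 2.34 ± 0.32 (adjusted p 0.000273), Aldh18a1, which makes the precursor of proline and ornithine, fell by 1.58 ± 0.22 (adjusted p 0.000302), and spermine synthase Sms rose by 1.57 ± 0.24 (adjusted p 0.000536). In WT BMDMs 3 were called higher and 9 lower (18.7% and 21.7% of all genes), with a median of -0.22 against -0.08. Sat1, the rate-limiting polyamine acetyltransferase, rose by 1.85 ± 0.17 (adjusted p 0.000320), glutamine synthetase Glul fell by 1.86 ± 0.20 (adjusted p 0.000575) and Sms rose by 1.18 ± 0.13 (adjusted p 0.000725). CRE BMDCs had 2 higher and 5 lower (14.0% and 11.4%), and CRE BMDMs 3 higher and 6 lower (7.93% and 3.35%). Under DMXAA, CRE BMDMs had 5 of the 21 higher and 3 lower than WT (9.69% and 10.3% of all genes), with Sms (-1.02 ± 0.13, adjusted p 0.00390) and Sat1 (-0.9997 ± 0.169, adjusted p 0.00898) among the lower and Glul (1.19 ± 0.20, adjusted p 0.00837) among the higher.

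Of 19 genes of the citrate cycle and its carriers, all were tested. In WT BMDCs 1 was called higher and 5 lower (17.0% and 15.2% of all genes were), with a median of -0.08 against 0.01. Cytosolic isocitrate dehydrogenase Idh1 fell by 2.13 ± 0.33 (adjusted p 0.000542), the citrate carrier Slc25a1 rose by 1.08 ± 0.19 (adjusted p 0.00116) and fumarase Fh1 fell by 0.80 ± 0.18 (adjusted p 0.00601). In WT BMDMs none was called higher and 6 were lower (18.7% and 21.7% of all genes were), with a median of -0.16 against -0.08. Idh1 fell by 1.995 ± 0.157 (adjusted p 0.000159), Idh3a by 0.83 ± 0.12 (adjusted p 0.00227) and Idh2 by 1.14 ± 0.17 (adjusted p 0.00255). CRE BMDMs had 5 of the 19 lower (3.35% of all genes were) and CRE BMDCs 1 higher and 6 lower (14.0% and 11.4%).

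Across the 20 libraries other than those numbered 3, the genes whose log2(FPKM + 1) followed each of the 7 most closely were listed by Pearson's r, as a description. These libraries share groups and cell types, and 12730 genes were compared. Acod1 was most like Slco3a1, Cd40 and Cd274 (r = 0.979, 0.979 and 0.978), Nos2 like Mtmr14, Ppm1k and Sco1 (0.983, 0.982 and 0.980) and Gch1 like Casp4, Nt5c3 and Prpf38a (0.992, 0.989 and 0.986). Slc7a2 was most like Mir155hg, P2ry14 and Fut8 (0.982, 0.973 and 0.972) and Arg2 like Pgf, Tjp1 and Osbpl5 (0.942, 0.939 and 0.936). Arg1 was most like Gimap1, E230016K23Rik and Thy1 (0.993, 0.991 and 0.991), and Ass1 like its pseudogene Gm5424, Slc2a6 and Pim1 (0.996, 0.971 and 0.968). Among the 7, Acod1 and Gch1 were closest to each other (r = 0.952), and Arg1 followed Nos2 with r = 0.274 and Gch1 with r = -0.06.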

How the data were processed

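RNA was measured in 24 polyA libraries. The authors aligned reads to GRCm38/mm10 and deposited a count per gene and FPKM per library; the submitters' processing notes name CASAVA 1.8, fastp, HISAT2 2.0.5, featureCounts 1.5.0-p3 and DESeq2 1.20.0. The deposited counts are whole numbers and not normalized, and the deposited FPKM values are scaled by the authors to gene length and library size. The authors' own group means, fold changes and p-values in the table were not used. Strand setting was not given in the sources used here.

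Counts were tested in edgeR 4.0.16 (R 4.3.3; quasi-likelihood test, TMM, two-sided, Benjamini-Hochberg) over genes with an FPKM of 1 or above in 3 libraries of the fit. The BMDC fit held 12 libraries, the BMDM fit 8 (numbers 1 and 2) and the fit over both 20, for 13 comparisons. Nos2 in BMDMs used a filter on 2 libraries, chosen after seeing the data. Alternatives used limma 3.58.1 on log2(FPKM + 1) or log2(FPKM + 0.1), DESeq2 1.42.0, other filters and scaling, each library left out, and replicate blocks. In BMDCs same-numbered libraries of a label deviated together (correlations 0.327 to 0.669), so block values stand beside results they change. The edgeR fit was tested on simulated data. The 7 genes, the gene lists and the marker lists were chosen with earlier results of these data known. Other genes are named as the 3 with the smallest adjusted p per list among those called in the WT response, and the most alike as the 3 with the highest Pearson's r.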

Additional observations from a re-analysis of the deposited data

Results flagged for a closer look

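The Slc7a2 response to DMXAA differed between labels in BMDMs, by -3.37 on the log2 scale in the test of the difference itself. The WT response of Slc7a2 also differed between cell types, by -2.25, as did that of Nos2 (adjusted p 0.0197 in edgeR).

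Signal was present in the BMDM libraries numbered 3, which the comparisons do not use. Nos2 stood at 6.25 FPKM in WT control 3 and 3.01 in CRE control 3, above the 0 counts of numbers 1 and 2, and Ass1 at 25.8 and 47.2 FPKM.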

How the results depend on the processing

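Of 731 alternative values for the 33 called results, 646 kept direction and call, 83 kept direction only and 2 reversed. These called results include those of Nos2 in BMDMs with the filter on 2 libraries. Of 675 alternative values for the 29 uncalled results, 35 reversed and 45 became called. With all 12 BMDM libraries, 0 genes were called in the WT response, the CRE response, CRE against WT under DMXAA and the difference between responses, 1 between cell types in control, 1 under DMXAA and 0 for the difference of responses, and Nos2 reversed to -0.17 in control and 1.13 for the difference of responses. With these 12 and the replicate block, 4 of 5 were called for the WT response, 1 for the CRE response, 0 for CRE against WT under DMXAA and 0 for the difference between responses. With the close CRE libraries counted as 1, these 3 counts were 0. Without a filter, 7 genes were tested in BMDMs in place of 4. There 5 were called for the CRE response, 5 for CRE against WT under DMXAA and 2 in control (2120, 3630 and 700 of 23641 genes were). Between cell types 5 were called under DMXAA and 4 for the difference of responses, which limma on log2(FPKM + 1) put at 1. The share of all genes called is not given for any count between cell types in this paragraph. Nor is it given for the CRE response with all 12 BMDM libraries and the replicate block. These counts cannot be read as particular to the 7 genes.

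Leaving out each library in turn changed which genes were called in the BMDM comparisons and for the difference of responses between cell types. Leaving out a BMDM library left 1 library in its group, so counts of genes called are not given for these fits. Reversals among uncalled results then ran from -0.87 to 0.019 (Arg1, BMDC CRE against WT under DMXAA), -0.088 to 0.75 (Acod1, same in control), -5.14 to 0.48 (Acod1, BMDM control), -5.42 to 0.21 and -2.73 to 0.61 (Acod1 and Ass1, BMDM difference between responses), -0.30 to 5.31 and -0.28 to 0.30 (Acod1 and Gch1, cell types in control), and -0.34 to 1.81 and -2.55 to 0.67 (Arg1 and Arg2, cell type difference of responses). Between cell types in control Gch1 was -0.0061 with median-of-ratios scaling, -0.067 without a filter, -0.017 at FPKM 5, -0.0061 in DESeq2 and -0.21 with the replicate block. Arg1 for the difference of responses was -1.20 and -0.40 in limma with pseudocounts 1 and 0.1, and Arg2 0.067 with 1. In BMDC CRE against WT, Arg1 was 0.19 with close cross-label pairs as blocks, and with these pairs alone 0.025 under DMXAA and 0.013 in control, with Acod1 at -0.028 in control and 0.034 for the difference between responses. The cause was not tested.

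The block within label called Arg1 and Arg2 in BMDCs as given above. In BMDMs, over numbers 1 and 2, same-numbered control and DMXAA libraries correlated at 0.584 in WT and 0.0206 in CRE. There the block within label called Ass1 in the CRE response at 3.53 (adjusted p 0.0200). Only 2 libraries a group in BMDMs, and a few reads for Nos2 in CRE and for both arginases, limit these results.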
